A study of Homo sapiens with 6 samples.

Results

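The 43 genes described here are targets of the integrated stress response, the amino acid enzymes and transporters that respond to it, and the cytosolic aminoacyl-tRNA synthetases. They were chosen by symbol from the 58735 genes of the deposited count table, 23 of them stress response genes and 20 of them synthetase genes, and all 43 were found there. The table uses the older synthetase symbols, so AARS stands for AARS1 and so on. RNA-seq was done on Mum-2b, a human cell line labelled as uveal melanoma, in 2 groups of 3 libraries. In the knockdown group NELFCD, a subunit of the negative elongation factor that holds RNA polymerase II shortly after it starts a transcript, was depleted, and the titles name shRNA1 only, so 1 hairpin stands behind the group. The control libraries are titled NC and carry the genotype WT. No drug, time point or dose is given, and nothing in the labels says whether the 3 libraries of a group were separate cultures, so the p-values measure the spread between these libraries only.

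The integrated stress response begins when a kinase, activated by amino acid shortage, unfolded protein, haem shortage or viral RNA, phosphorylates the initiation factor eIF2. General protein synthesis then slows, while the transcript of the transcription factor ATF4 is translated better. ATF4, often paired with a C/EBP protein, turns on genes that make, import and charge amino acids, together with feedback genes that dampen the response. Aminoacyl-tRNA synthetases join each amino acid to its tRNA. Some of their genes are known ATF4 targets and others are not. In melanoma cells ATF4 activity is known for its part in the shift between growing and invasive states.

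Total counts were 14600333 to 16656630 in the knockdown libraries and 14306733 to 16106948 in the control libraries. NELFCD had 20.7, 37.4 and 40.3 CPM (counts scaled to library size) in knockdown libraries 1 to 3, against 65.5, 88.3 and 83.5 CPM in control libraries 1 to 3, so 41.5% of its mean control level was left. It fell by 1.30 on the log2 scale with the replicate block (SE 0.109, edgeR adjusted p = 0.00046) and had a log2 fold change of -1.27 without it (adjusted p = 0.53). The libraries numbered 1 stood apart from those numbered 2 and 3 in both groups: 4684 of 14844 genes tested were higher there (31.6%) and 4486 were lower (30.2%). Libraries that share a number departed from their group means together, the correlation over genes being 0.864 for number 1, 0.696 for number 2 and 0.685 for number 3. Departures from a group mean sum to 0, so the values for numbers 2 and 3 largely follow from number 1. The difference between libraries 2 and 3 was uncorrelated between the groups (-0.004), so the data link only the libraries numbered 1. The members' results are given by pair of same-numbered libraries and from a fit blocked on the replicate number. In pairs 2 and 3 the matching follows the label numbers alone. Of 7 melanocyte markers, summed over the list, the libraries held 7.61 to 18.3 CPM in the knockdown and 7.5 to 10.7 CPM in controls. TYR, the tyrosinase gene, was at 0 counts in 5 of 6 libraries, and DCT and PMEL were under 1 CPM in all 6, so the defining pigment genes were near absent from these cells, and none of the 3 markers with enough counts to test passed. TYRP1 and MITF, the melanocyte master regulator, were present at 2.67 to 9.17 CPM. The summed markers of fibroblasts (6 genes, at most 2.27 CPM) and leukocytes (5 genes, at most 0.991 CPM) were near 0 in both groups. The 5 endothelial markers summed to 54.4 to 58.0 CPM in the knockdown and 126 to 166 CPM in controls, nearly all of it the vascular cadherin CDH5 (50.6, 53.9 and 56.5 CPM in the knockdown, 158, 123 and 139 CPM in controls), which fell; its part in the members' results was not tested.

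In the blocked fit stress response genes were mostly lower in the knockdown, and tRNA synthetase genes moved in both directions. Of the stress response genes 15 of 21 had a negative log2 fold change, where 7418 of 14844 genes tested had one. With the replicate number as a block, 8 of 21 stress response genes tested fell and 1 rose, and 6 of 20 synthetase genes rose and 3 fell. NUPR1 and ALDH1L2 had too few counts to be tested. Over all 41 members tested, 11 fell (26.8%) and 7 rose (17.1%), where 8.01% of all genes tested fell and 5.48% rose. The members were more highly expressed than most genes, with a median of 189.8 CPM against 21.3 CPM over all genes tested. Among the 34 members at 50 CPM or more 9 fell (26.5%) and 7 rose (20.6%), where 12.8% of all genes at that level fell and 6.73% rose. The median log2 fold change was -0.28 in stress response genes and 0.07 in synthetase genes, against 0.00 over all genes tested. Without the block the stress response median was -0.20, and it changed sign with the library left out. It ran from -0.68 without knockdown library 1 to 0.37 without control library 1. In the blocked fit the members' log2 fold changes ran from -0.90 for DDIT4 (-1.08 without the block) to 0.63 for CTH, which did not pass. A call here is an adjusted p under 0.05 by the quasi-likelihood test of edgeR, adjusted by Benjamini-Hochberg over all genes tested. In the same edgeR test without the block 0 of the 41 members and 0 of the 14844 genes were called, with 0 members and 954 genes at an unadjusted p under 0.05. DESeq2 without a block called 0 members and 1.23% of all genes. The groups overlapped in all tested members except DARS and TARS, with the libraries numbered 1 standing apart from the others. In libraries numbered 2 and 3 alone, with no replicate term, 15 members fell and 11 rose, where 13.7% of all genes tested fell and 11.7% rose, a fit added after the data were seen. In bulk RNA fewer cells of a type and less RNA per cell cannot be told apart.

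**Figure D1:**
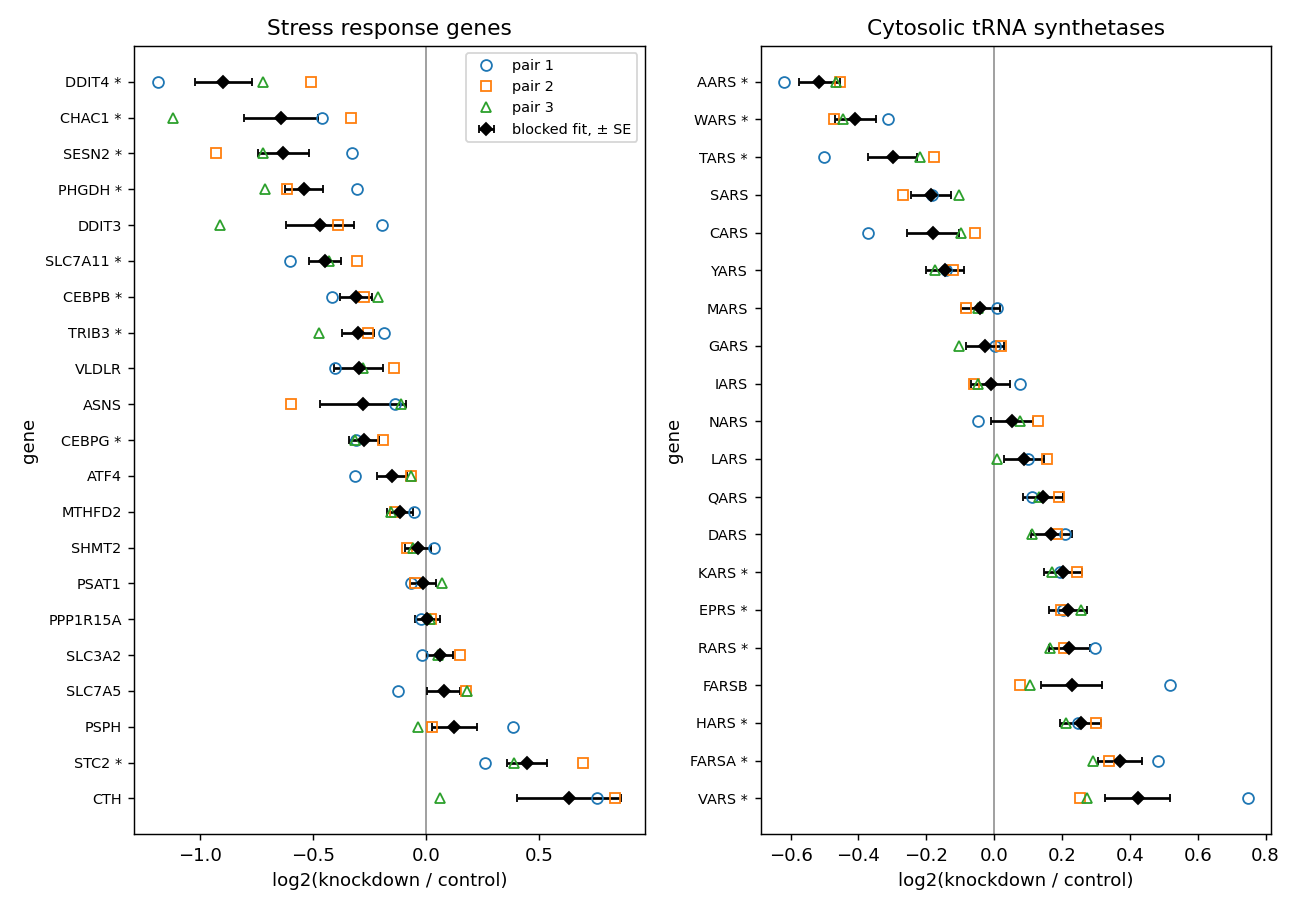
Log2 ratio of knockdown over control for the 21 stress response genes tested (left) and the 20 cytosolic tRNA synthetase genes (right): open symbols are the 3 pairs of same-numbered libraries (on CPM + 0.5), black diamonds the blocked edgeR fit with its SE, and a star marks an adjusted p under 0.05. The stress response genes lie mostly left of 0, while the synthetases run from AARS at -0.52 to VARS at 0.42.

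The C/EBP-ATF response element (CARE) is the composite site that ATF4 and a C/EBP protein bind, and its core was searched for in the promoters of these genes as TGATGNAA on either strand, which reads TTNCATCA when the site lies on the other strand. RefSeq promoter windows (GRCh38.p14, 250 bases before to 50 after a transcript start) were at hand for 21 of the 43 members, 18 stress response genes and 3 synthetases. The core was found in 4 of these 21 (19.0%), against 1217 of 27305 gene symbols with a window (4.46%). Counted by window, it was in 4 of 30 windows of members (13.3%) and in 1270 of all 35116 windows (3.62%). The stress response members were chosen as targets of this response, so a higher share was likely in advance and is no result of these data. The 4 windows are shown because they place the core near the start of genes whose levels are given below. Capitals mark the core, and each sequence runs 5′ to 3′ on the strand of its gene.
CEBPG promoter, chr19:33373863-33374162, plus strand: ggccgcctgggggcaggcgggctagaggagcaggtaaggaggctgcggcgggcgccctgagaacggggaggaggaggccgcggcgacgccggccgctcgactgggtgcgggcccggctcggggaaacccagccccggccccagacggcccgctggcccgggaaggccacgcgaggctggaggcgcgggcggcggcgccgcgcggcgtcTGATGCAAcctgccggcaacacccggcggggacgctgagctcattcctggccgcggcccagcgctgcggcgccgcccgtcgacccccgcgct
CHAC1 promoter, chr15:40953221-40953520, plus strand: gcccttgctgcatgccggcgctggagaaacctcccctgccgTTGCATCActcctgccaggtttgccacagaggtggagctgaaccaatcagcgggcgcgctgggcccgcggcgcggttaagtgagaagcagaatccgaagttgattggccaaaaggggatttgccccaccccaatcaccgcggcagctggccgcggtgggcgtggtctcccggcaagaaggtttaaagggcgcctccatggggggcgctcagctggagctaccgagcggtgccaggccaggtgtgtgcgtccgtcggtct
ASNS promoter, chr7:97872359-97872658, minus strand: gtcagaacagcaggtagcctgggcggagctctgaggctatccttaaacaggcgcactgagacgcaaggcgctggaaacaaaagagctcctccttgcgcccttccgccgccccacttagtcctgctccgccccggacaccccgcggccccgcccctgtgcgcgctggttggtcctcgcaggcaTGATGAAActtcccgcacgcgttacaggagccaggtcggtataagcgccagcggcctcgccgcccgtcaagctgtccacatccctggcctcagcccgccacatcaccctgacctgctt
SLC3A2 promoter, chr11:62881449-62881748, plus strand: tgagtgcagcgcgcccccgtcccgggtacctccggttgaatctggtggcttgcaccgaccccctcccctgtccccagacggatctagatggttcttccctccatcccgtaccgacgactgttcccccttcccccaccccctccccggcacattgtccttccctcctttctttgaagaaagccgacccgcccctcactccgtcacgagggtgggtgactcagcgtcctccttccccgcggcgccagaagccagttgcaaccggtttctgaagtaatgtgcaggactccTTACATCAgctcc
In ASNS the core lay 68 to 61 bases before the start, in CEBPG 42 to 35 bases before it and in CHAC1 209 to 202 bases before it. In SLC3A2 it lay 37 to 44 bases after the start, and the other listed starts of CEBPG, ASNS and SLC3A2 held none. Of these 4 genes CEBPG and CHAC1 fell in the knockdown, while ASNS and SLC3A2 did not pass. Of the 7 members that fell and had a window 2 held the core, of the 3 that rose 0, and of the 11 others 2. Matches are descriptions of letters, and the absence of a match concerns only these windows.

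**Figure D2:**
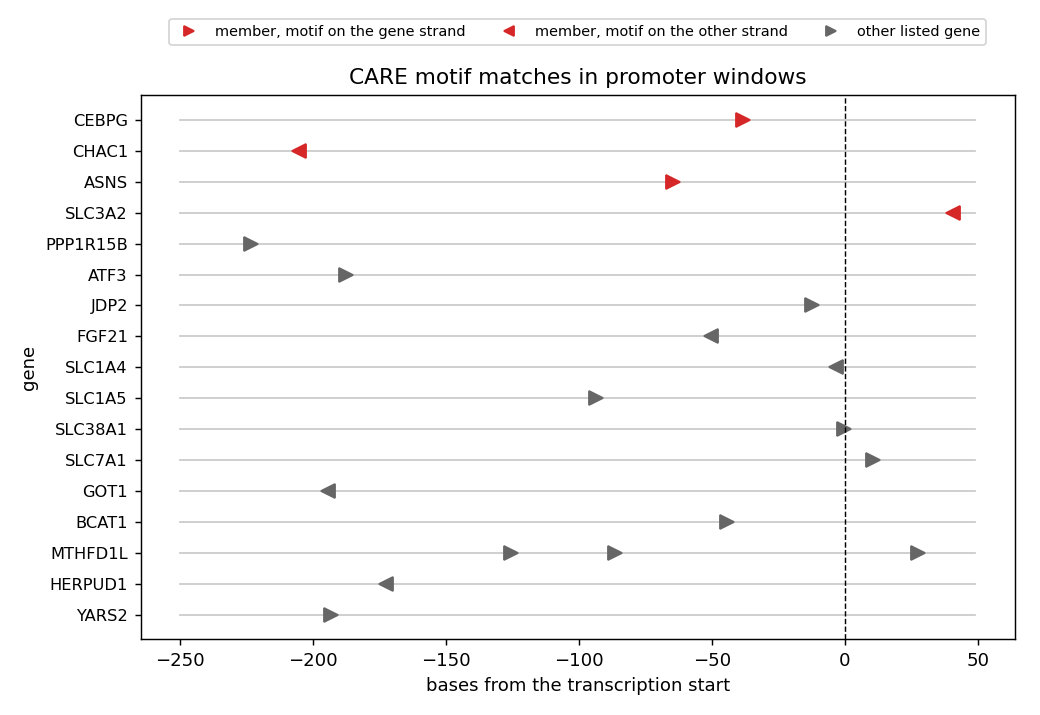
Positions of the CARE core in promoter windows, in bases from the transcript start, with arrowheads for the strand. The 4 members that hold it are red, and 13 genes of the other lists, among them the mitochondrial synthetase gene YARS2, are grey. Among the members, the core lies before the start in CEBPG, CHAC1 and ASNS and after it in SLC3A2.

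The regulators at the head of the pathway were lower or did not pass. ATF4 (ENSG00000128272, chromosome 22, 39519695 to 39522685, hg38), the transcription factor itself, had 767, 409 and 402 CPM in knockdown libraries 1 to 3, against 954, 428 and 421 CPM in control libraries 1 to 3. Each knockdown library was lower than its numbered control, but the groups overlapped and the log2 fold change of -0.15 ± 0.067 (SE) did not pass (edgeR adjusted p = 0.17). ATF4 is mainly controlled at translation, which these counts do not measure. CEBPB, a C/EBP transcription factor, had 94.4, 39.6 and 42.1 CPM in the knockdown, against 126, 48.1 and 48.9 CPM in controls, and fell by 0.31 on the log2 scale (adjusted p = 0.024). CEBPG, a partner of ATF4, had 109.9, 58.6 and 55.0 CPM in the knockdown, against 136, 67.0 and 68.5 CPM in controls, and fell by 0.27 (adjusted p = 0.026). TRIB3, a pseudokinase that feeds back on ATF4, had 369.9, 78.5 and 73.2 CPM in the knockdown, against 421, 93.8 and 102 CPM in controls, and fell by 0.30 (adjusted p = 0.026). In these 3 genes each knockdown library lay below its numbered control, while libraries numbered 1 of either group lay above all those numbered 2 and 3.

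The other regulators gave no call. DDIT3, which encodes the pro-apoptotic factor CHOP, had 26.4, 7.45 and 5.35 CPM in the knockdown, against 30.3, 9.91 and 10.5 CPM in controls, with a log2 fold change of -0.47 ± 0.15 (SE) and an edgeR adjusted p = 0.075. Of its exon bases 39.6% are shared with other genes, among them the synthetase gene MARS on the opposite strand, so its count is uncertain. PPP1R15A, which encodes the phosphatase subunit GADD34 that reverses eIF2 phosphorylation, had nearly equal values, with 359, 201 and 205 CPM in the knockdown and 364, 198 and 203 CPM in controls (log2 fold change 0.01 ± 0.056, SE). NUPR1, a stress-induced chromatin protein, had 2, 6 and 0 counts in knockdown libraries 1 to 3 and 2, 0 and 0 counts in control libraries 1 to 3. A count of 0 allows up to 0.205 CPM in the knockdown library and up to 0.21 CPM in the control libraries, which covers counting error only.

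Of the 5 effector genes 3 fell and 1 rose. DDIT4 (ENSG00000168209, chromosome 10, 72273920 to 72276036), which encodes the mTORC1 inhibitor REDD1, had 66.0, 10.7 and 9.80 CPM in the knockdown, against 151, 15.5 and 16.5 CPM in controls, a log2 fold change of -0.90 ± 0.13 (SE, adjusted p = 0.0039 in edgeR). Its fall was steeper in pair 1 (-1.19) than in pairs 2 and 3 (-0.51 and -0.72). DDIT4-AS1 on the opposite strand overlaps 41.2% of its exon bases, and whether counting used strand is not given in the sources used here. SESN2 (ENSG00000130766, chromosome 1, 28259527 to 28282491), sestrin 2, which reports leucine shortage to mTORC1, had 111, 18.4 and 18.3 CPM in the knockdown, against 140.0, 35.5 and 30.5 CPM in controls, a log2 fold change of -0.63 ± 0.11 (SE, adjusted p = 0.0096). Here pair 1 had the smaller fall (-0.33, against -0.93 and -0.72 in pairs 2 and 3). So the 2 mTORC1 inhibitors were both lower in each pair, with opposite departures of pair 1. Pair 1 holds 1 library per group, so differences between pairs, here and below, are given by size only.

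CHAC1 (ENSG00000128965, chromosome 15, 40952962 to 40956519), the glutathione-degrading enzyme whose promoter core is printed above, had 27.0, 3.94 and 3.63 CPM in the knockdown, against 37.4, 5.10 and 8.51 CPM in controls. It fell by 0.64 on the log2 scale (SE 0.17, adjusted p = 0.035), with pair ratios of -0.46, -0.33 and -1.12. STC2, a secreted glycoprotein induced by stress, was the stress response gene that rose. It had 168, 102 and 92.9 CPM in the knockdown, against 139.9, 62.4 and 70.7 CPM in controls, a log2 fold change of 0.45 ± 0.087 (SE, adjusted p = 0.013), and each knockdown library lay above its numbered control. VLDLR, a lipoprotein receptor, had 25.4, 9.27 and 10.7 CPM in the knockdown and 33.8, 10.3 and 13.1 CPM in controls, and its log2 fold change of -0.30 did not pass (adjusted p = 0.099).

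Of the 5 genes of serine, asparagine and cysteine synthesis 1 fell. PHGDH (ENSG00000092621, chromosome 1, 119648411 to 119744226), the first enzyme of serine synthesis, had 352, 68.0 and 67.4 CPM in the knockdown, against 436, 105 and 111 CPM in controls, a log2 fold change of -0.54 ± 0.084 (SE, adjusted p = 0.0058). Its pair ratios were -0.31, -0.62 and -0.72, with the smallest fall in pair 1. The next enzymes of the same route did not pass. PSAT1, the second enzyme, had 568, 248 and 262 CPM in the knockdown and 594, 256 and 249 CPM in controls (log2 fold change -0.01 ± 0.058, SE), and PSPH, the third, had 42.7, 40.0 and 38.0 CPM in the knockdown and 32.5, 39.3 and 39.0 CPM in controls (0.13 ± 0.098, SE). PSPH was also the 1 tested stress response gene that did not pass between libraries numbered 1 and the others (log2 ratio -0.06).

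ASNS, asparagine synthetase and a textbook ATF4 target, was barely expressed in libraries numbered 2 and 3. It had 240, 25 and 24 counts in knockdown libraries 1 to 3, against 257, 36 and 29 counts in control libraries 1 to 3, which is 16.0, 1.52 and 1.65 CPM in the knockdown against 17.6, 2.55 and 1.81 CPM in controls. The log2 fold change of -0.28 ± 0.19 (SE) did not pass (adjusted p = 0.36). A second annotated gene on the same strand shares 44.6% of its exon bases, so part of its reads may have been counted elsewhere or dropped. CTH, the last enzyme of transsulfuration, which makes cysteine, had 8.11, 3.94 and 3.15 CPM in the knockdown and 4.59, 1.98 and 3.002 CPM in controls, and its log2 fold change of 0.63 ± 0.23 (SE) did not pass (adjusted p = 0.1). The mitochondrial one-carbon enzymes, which take serine on to formate, did not pass either. SHMT2 had 301, 177 and 186 CPM in the knockdown and 294, 187 and 194 CPM in controls, and MTHFD2 had 376, 132 and 128 CPM in the knockdown and 389, 145 and 142 CPM in controls (log2 fold changes -0.04 and -0.11). Other genes on the opposite strand share 33.2% of the exon bases of MTHFD2, so its count is uncertain. ALDH1L2 had 7, 9 and 13 counts in the knockdown libraries and 0, 5 and 9 in the control libraries and was not tested.

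Among the 3 transporter genes SLC7A11 fell and its partner did not. SLC7A11 (ENSG00000151012, chromosome 4, 138164097 to 138242349), the cystine-glutamate exchanger that supplies cysteine for glutathione, had 161, 135 and 117 CPM in the knockdown, against 245, 167 and 158 CPM in controls, a log2 fold change of -0.45 ± 0.071 (SE, adjusted p = 0.0065). Its highest knockdown library lay between the control libraries, so the groups overlapped, and it was lower by 0.60, 0.30 and 0.43 in pairs 1 to 3. SLC3A2, the heavy chain that SLC7A11 and SLC7A5 share, had 374, 317 and 310 CPM in the knockdown and 379, 285 and 299 CPM in controls (log2 fold change 0.06, adjusted p = 0.53). SLC7A5, the leucine transporter LAT1, had 903, 643 and 643 CPM in the knockdown and 984, 569 and 566 CPM in controls. Its ratio was -0.12 in pair 1 and 0.18 in both other pairs, and over all pairs it did not pass (0.08, edgeR adjusted p = 0.51).

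AARS, WARS and TARS were the synthetase genes that fell. AARS (ENSG00000090861, chromosome 16, 70252295 to 70289543), which charges alanine, had 572, 212 and 222 CPM in the knockdown, against 880.2, 290.3 and 307 CPM in controls, a log2 fold change of -0.52 ± 0.06 (SE) and the smallest adjusted p of the members (0.0018). WARS (ENSG00000140105, chromosome 14, 100333788 to 100376805), which charges tryptophan, had 587, 132 and 134 CPM in the knockdown, against 729.9, 184 and 182 CPM in controls, a log2 fold change of -0.41 ± 0.06 (SE, adjusted p = 0.0047). WARS is also an interferon-induced gene. TARS (ENSG00000113407, chromosome 5, 33440696 to 33469539), which charges threonine, had 283, 379 and 361 CPM in the knockdown, against 400.1, 428 and 420.1 CPM in controls. It was 1 of 2 members whose groups did not overlap, where 7.38% of all genes tested had every knockdown library below every control library. With 3 libraries a group an exact permutation test cannot go below its p here of 0.1. The edgeR log2 fold change of TARS was -0.30 ± 0.073 (SE, adjusted p = 0.029), with the steepest fall in pair 1 (-0.50, against -0.18 and -0.22).

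VARS, FARSA, HARS, RARS, EPRS and KARS rose. VARS (ENSG00000204394, chromosome 6, 31777518 to 31795953), which charges valine, had 225, 273 and 277 CPM in the knockdown, against 134, 229 and 229 CPM in controls, a log2 fold change of 0.42 ± 0.095 (SE, adjusted p = 0.023). Control library 1 was the lowest of the 6, and pair 1 rose by 0.75 where pairs 2 and 3 rose by 0.25 and 0.27. FARSA (ENSG00000179115, chromosome 19, 12922479 to 12934037), the alpha subunit of the phenylalanine enzyme, had 118, 155 and 155 CPM in the knockdown, against 84.1, 123 and 126 CPM in controls, a log2 fold change of 0.37 ± 0.065 (SE, adjusted p = 0.0092). Its partner FARSB, the beta subunit, had 99.96, 152 and 147 CPM in the knockdown and 69.7, 144 and 137 CPM in controls. FARSB was higher by 0.52 in pair 1 and by 0.08 and 0.11 in the other pairs, and its log2 fold change of 0.23 ± 0.09 (SE) did not pass (adjusted p = 0.12).

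The other rises were between 0.20 and 0.25 on the log2 scale. HARS, which charges histidine, had 109, 129 and 127 CPM in the knockdown, against 91.4, 105 and 109 CPM in controls (0.25 ± 0.061, SE, adjusted p = 0.027). EPRS, a fused enzyme for glutamate and proline, had 374, 253 and 255 CPM in the knockdown, against 325, 221 and 214 CPM in controls (0.22 ± 0.056, SE, adjusted p = 0.035). RARS, for arginine, had 122, 191 and 179.6 CPM in the knockdown, against 99.5, 166 and 160.2 CPM in controls (0.22 ± 0.061, SE, adjusted p = 0.044). KARS, for lysine, had 277, 359 and 343 CPM in the knockdown, against 242, 303 and 304 CPM in controls (0.20 ± 0.056, SE, adjusted p = 0.044). In each of these 4 genes every knockdown library exceeded its numbered control, with pair ratios from 0.16 to 0.30. EPRS, KARS and RARS belong to the multisynthetase complex, in which 8 of these synthetase genes encode subunits that are held together by scaffold proteins. Grouped that way after the values were seen, 3 of the 8 complex members rose and 0 fell, and of the 12 other synthetase genes 3 rose and 3 fell. Over all genes tested 5.48% rose and 8.01% fell, and at 50 CPM or more 6.73% rose and 12.8% fell. The difference between the 2 sets was not tested, and EPRS, KARS and RARS were not called without pair 2 or without pair 3.

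A total of 11 synthetase genes did not pass. DARS, for aspartate, had 137, 128 and 129 CPM in the knockdown, against 118, 113 and 119.6 CPM in controls, so its groups did not overlap (exact permutation p = 0.1), but its log2 fold change of 0.17 ± 0.06 (SE) had an edgeR adjusted p = 0.098. Of all genes tested 7.52% had every knockdown library above every control library. SARS (-0.19), CARS (-0.18) and YARS (-0.15), for serine, cysteine and tyrosine, were lower in each pair, and QARS (0.15) and LARS (0.09), for glutamine and leucine, were higher in each pair. GARS (-0.03), IARS (-0.01), MARS (-0.04) and NARS (0.05), for glycine, isoleucine, methionine and asparagine, had log2 fold changes within 0.06 of 0. Over the 20 synthetase genes 6 were lower and 10 higher in all 3 pairs. How many of all genes tested kept their direction over the pairs was not computed, so these counts have no background. Apart from the libraries numbered alike that the data link, the pairs follow the label numbers alone, and whether the synthetase genes kept their direction more often was not tested.

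Levels between synthetase genes were compared per length on the deposited FPKM. GARS had the highest mean level, with 127 ± 51.9 FPKM in the knockdown and 131 ± 52.1 FPKM in controls (SD, n = 3 each). CARS had the lowest mean over both groups, with 11.4 ± 6.34 FPKM in the knockdown and 13.7 ± 9.53 FPKM in controls. HARS had 15.3 ± 1.73 FPKM in the knockdown and 12.9 ± 1.35 FPKM in controls. Its control mean lay below that of CARS through control library 1 alone (11.4 against 24.7 FPKM), and it was above CARS in the other control libraries. CARS and HARS could therefore not be ordered. The spread between libraries differed widely between genes. DARS had 32.2 ± 0.453 FPKM in the knockdown and 29.03 ± 0.826 FPKM in controls, while WARS had 43.5 ± 39.2 FPKM in the knockdown and 56.8 ± 48.4 FPKM in controls. AARS, with 72.8 ± 42.8 FPKM in the knockdown and 109 ± 72.4 FPKM in controls, could not be ordered against GARS in controls, nor against IARS, KARS or TARS. The mean levels of these 3, 58.8 to 79.1 FPKM in the knockdown and 69.5 to 78.5 FPKM in controls, lay within its SD. SARS also lay within that SD (63.8 ± 36.7 FPKM in the knockdown, 73.7 ± 42.9 FPKM in controls), but it was lower than AARS in every library. Among the stress response genes ATF4 had the highest level, at 205 ± 76.2 FPKM in the knockdown and 237 ± 117 FPKM in controls, and the lowest levels among the tested ones were those of ASNS, CTH and VLDLR. ASNS had 1.38 ± 1.78 FPKM in the knockdown and 1.62 ± 1.96 FPKM in controls, CTH 2.05 ± 1.03 FPKM in the knockdown and 1.31 ± 0.523 FPKM in controls, and VLDLR 1.58 ± 0.895 FPKM in the knockdown and 2.02 ± 1.33 FPKM in controls, so these 3 could not be ordered.

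**Figure D3:**
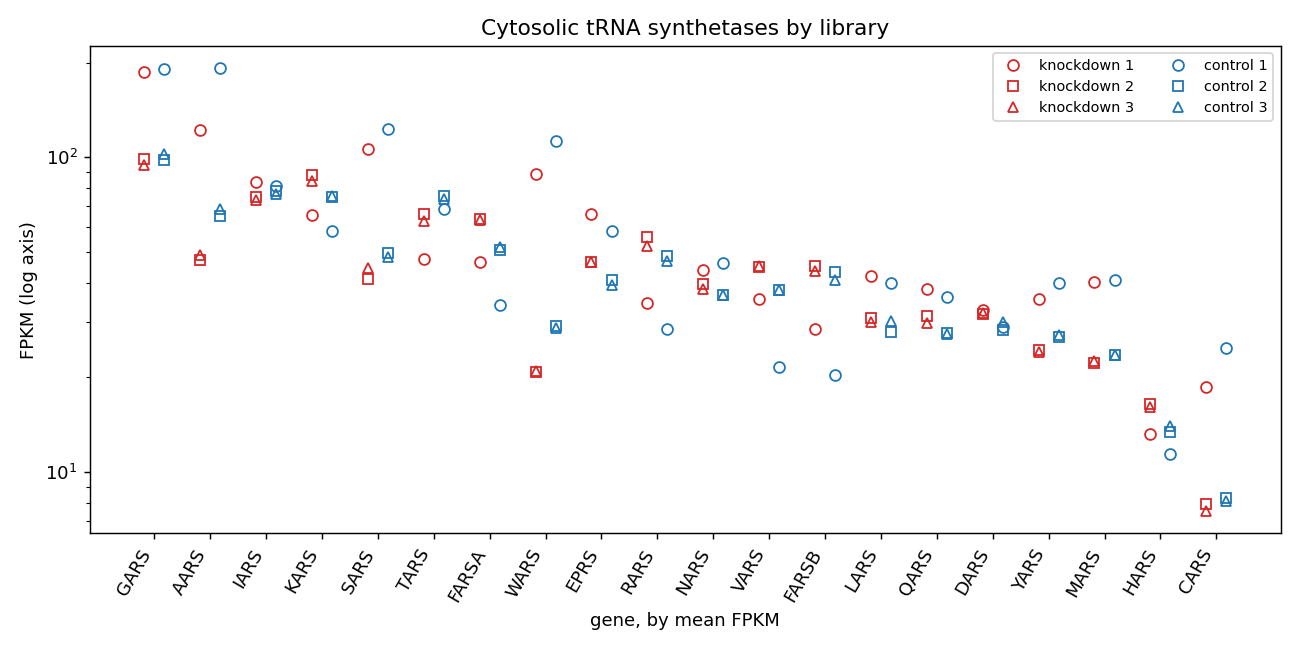
Deposited FPKM on a log axis for the 20 cytosolic tRNA synthetase genes, ordered by mean, with knockdown libraries in red left of control libraries in blue and symbols for the replicate number. WARS and AARS libraries numbered 1 stand far above those numbered 2 and 3, while those of DARS and IARS lie close together.

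The members parted the libraries by replicate number more than by group. They took 1.19% of the counts in knockdown library 1 and 1.24% in control library 1, against 0.707% to 0.712% in knockdown libraries 2 and 3 and 0.709% to 0.717% in control libraries 2 and 3. In a fit with group in the model, libraries numbered 1 were higher than those numbered 2 and 3 in 32 of 41 members (78.0%, where 31.6% of all genes tested were higher) and lower in 7 (17.1%, where 30.2% of all genes tested were lower). Of the 21 stress response genes 20 were higher there, by up to 3.17 on the log2 scale for ASNS, 2.99 for DDIT4 and 2.62 for CHAC1. The replicate contrast and the knockdown contrast use the same 6 libraries. What set libraries numbered 1 apart is not given in the labels, which name 2 RNA extraction kits without saying which library used which, and its part in these results was not tested.

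**Figure D4:**
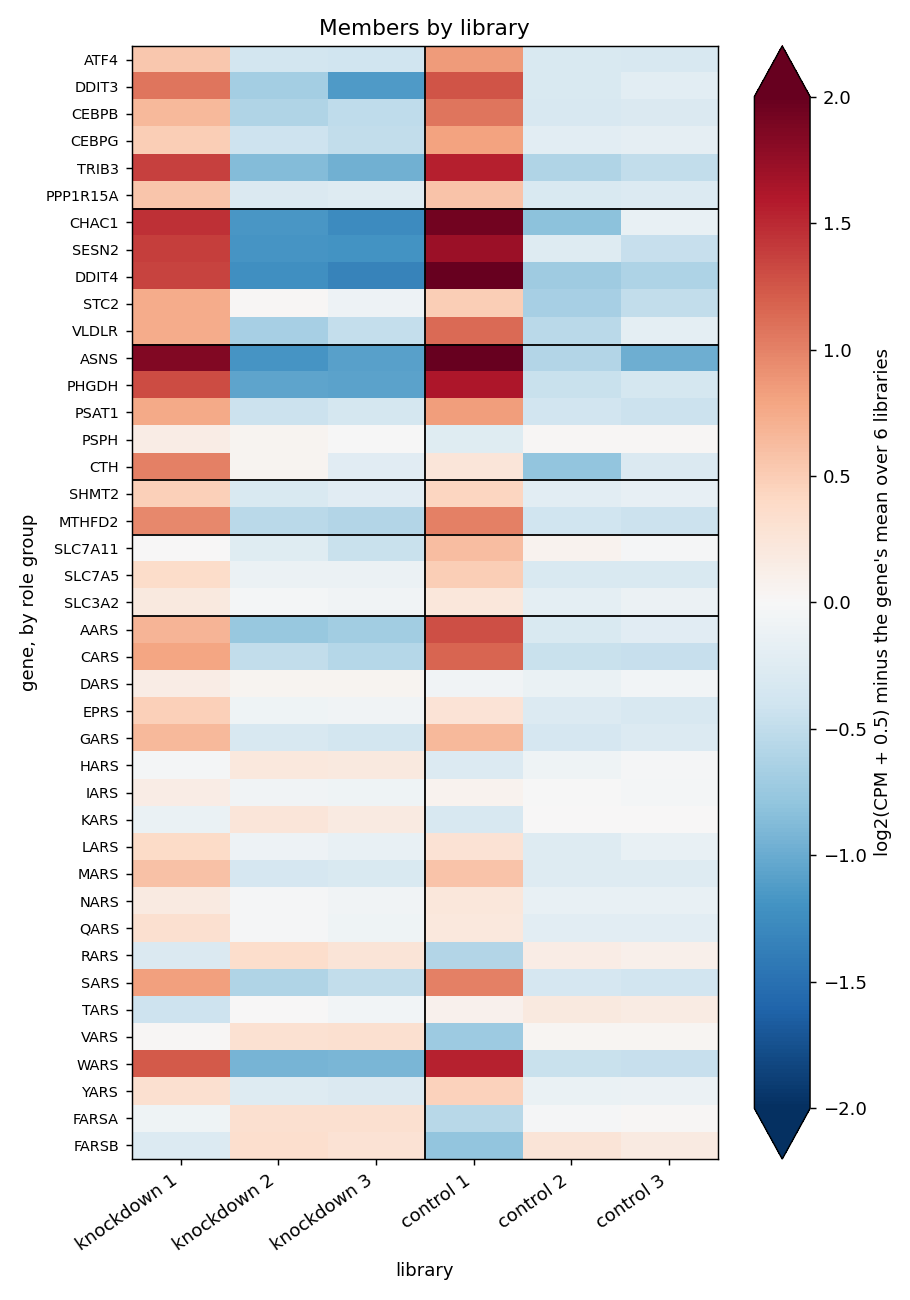
Heat map of log2(CPM + 0.5) minus each gene's mean over the 6 libraries, for the 41 members tested, by role group from regulators (top) to synthetases (bottom), with knockdown libraries left of control libraries. Libraries numbered 1 of both groups are red in most stress response genes and in AARS, CARS, SARS and WARS, and blue in RARS, FARSB and, in controls, VARS.

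The synthetase genes divided in libraries numbered 1. WARS was higher there by 2.07 on the log2 scale, AARS and CARS by 1.48, SARS by 1.37, GARS by 0.98 and MARS by 0.87, and 12 of 20 synthetase genes were higher in all. Lower there were FARSB (-0.79), RARS (-0.65), VARS (-0.52), FARSA (-0.48), KARS (-0.33), HARS (-0.23) and TARS (-0.23), with edgeR adjusted p of at most 0.0088 in each, and DARS (0.06) did not pass. Set beside the knockdown calls, 5 of the 7 synthetase genes that were lower in libraries numbered 1 rose in the knockdown and 1, TARS, fell. Of the 12 that were higher there 2 (AARS and WARS) fell, 1 (EPRS) rose and 9 did not pass. Over all genes tested 5.48% rose and 8.01% fell in the knockdown. The shares among all genes lower or higher in libraries numbered 1 were not computed, so a link between the contrasts was not tested. As 20 of 21 stress response genes were higher in libraries numbered 1, it was nearly fixed in advance that the called ones lay among them. The 8 that fell and the 1 that rose did so.

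**Figure D5:**
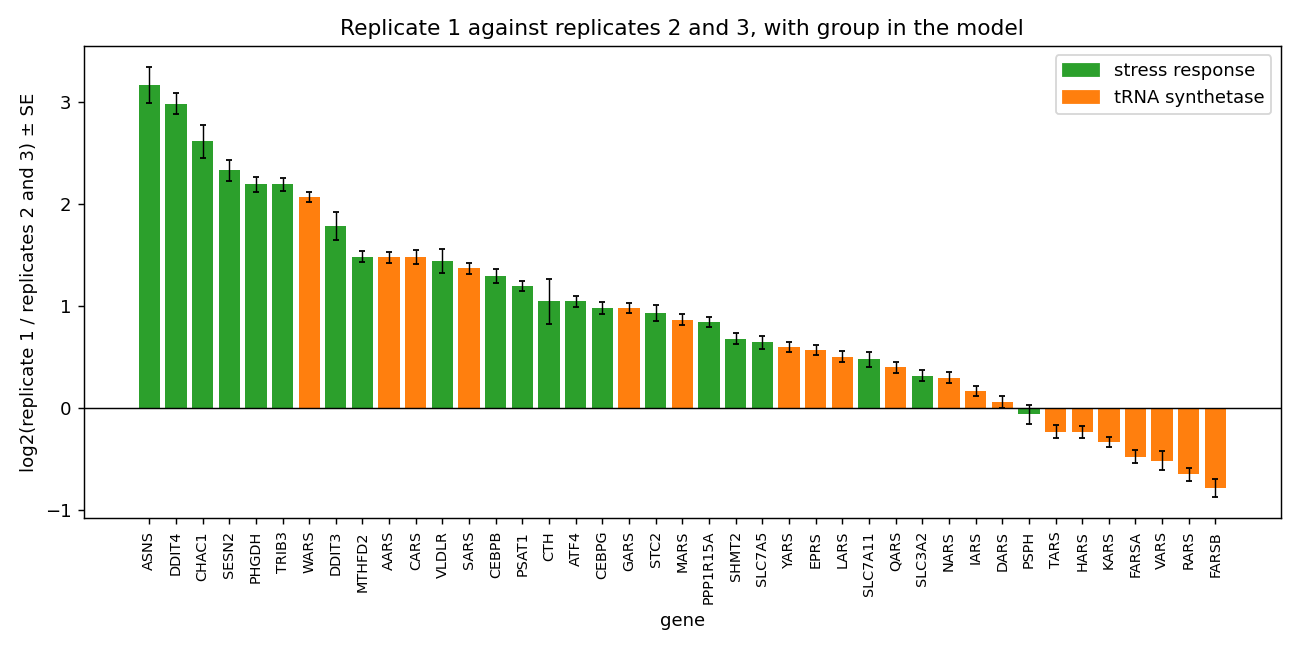
Log2 ratio of libraries numbered 1 over those numbered 2 and 3, with group in the model, for the 41 members tested, ordered by size, with bars for the estimate and lines for the SE. Stress response genes (green) take most of the left side, up to 3.17 for ASNS, and synthetase genes (orange) span from 2.07 for WARS to -0.79 for FARSB.

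The knockdown ratio itself differed in size between pair 1 and pairs 2 and 3 in several members, as given above. Pair 1 holds 1 library per group, so the spread of its ratio cannot be measured. With pairs 2 and 3 alone and the replicate block, 15 members fell and 11 rose, where 14.9% of all genes tested fell and 12.7% rose. Leaving out pair 2 left 6 falls and 1 rise, where 4.09% of all genes tested fell and 2.01% rose. Leaving out pair 3 left 8 falls and 4 rises, where 7.29% of all genes tested fell and 4.27% rose. DDIT4, SESN2, PHGDH, SLC7A11, AARS and VARS were called whichever pair was left out. CHAC1 lost its call without pair 3 (adjusted p = 0.093), WARS without pair 2 (0.054), FARSA without pair 2 (0.059), TARS without pair 2 (0.078) and STC2 without pair 2 (0.099). CEBPB lost it without pair 2 (0.11), and CEBPG, TRIB3, HARS, EPRS, KARS and RARS lost theirs without pair 2 and also without pair 3, with adjusted p from 0.1 to 0.34.

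The rest of the pathway was read from lists of neighbouring genes. Of 14 genes for eIF2 kinases and for subunits and regulators of eIF2 and eIF2B, 2 rose (14.3%) and 1 fell (7.14%), where 5.48% of all genes tested rose and 8.01% fell. EIF2AK4, which encodes the amino acid sensor kinase GCN2, had 87.2, 136 and 125 CPM in the knockdown, against 136, 165 and 164 CPM in controls, and fell by 0.43 on the log2 scale (edgeR adjusted p = 0.0099). EIF2B3, a subunit of the exchange factor eIF2B, rose by 0.54 (adjusted p = 0.0063), and EIF2S1, the eIF2 subunit that is phosphorylated, rose by 0.24 (adjusted p = 0.046). EIF2S3 (0.04) and EIF2S2 (-0.17), the other eIF2 subunits, did not pass. The PERK gene EIF2AK3 (-0.16), the HRI gene EIF2AK1 (0.08) and the PKR gene EIF2AK2 (-0.04), chosen after their values were seen, did not pass either.

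Of 27 further ATF4 target and amino acid genes tested 4 fell (14.8%) and 1 rose (3.7%), where 8.01% of all genes tested fell and 5.48% rose. Among all genes at 50 CPM or more 12.8% fell and 6.73% rose, and the list was not cut at that level. VEGFA, the angiogenic growth factor, had 67.9, 17.3 and 16.7 CPM in the knockdown, against 127, 25.3 and 26.1 CPM in controls, and fell by 0.72 (adjusted p = 0.0024). GPT2, a mitochondrial alanine aminotransferase, fell by 0.66 (adjusted p = 0.0011) and JDP2, an AP-1 repressor, by 0.65 (adjusted p = 0.0084), and ATF3, a stress transcription factor chosen after its value was seen, fell by 0.40 (adjusted p = 0.042). CEBPD, a C/EBP transcription factor, rose by 0.56 (adjusted p = 0.018). SLC38A1 (-0.02), a glutamine transporter, and BCAT1 (0.17), the branched-chain aminotransferase, did not pass. Over the list the median was -0.18, and 22 of the 27 genes (81.5%) were higher in libraries numbered 1, where 31.6% of all genes tested were. The 17 mitochondrial tRNA synthetase genes had a median log2 fold change of 0.07, and IARS2 (-0.04) and CARS2 (0.12) did not pass. In libraries numbered 1 the mitochondrial synthetase genes were higher in 1 (5.88%) and lower in 10 (58.8%) of 17, where 31.6% of all genes tested were higher and 30.2% lower. Of the 3 scaffold genes of the multisynthetase complex AIMP2 rose by 0.41 (adjusted p = 0.019), and AIMP1 (0.12) and EEF1E1 (-0.13) did not pass.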

How the data were processed

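RNA-seq was done on total RNA of 3 knockdown and 3 control libraries, made with the SMARTER mRNA-seq kit per the labels' protocols. The deposited table holds raw read counts per gene, and the authors' FPKM table scales them by gene length and library; both were used as deposited. Each FPKM equals the count divided by length and 1 constant per library, 0.982 to 1.07 times its total count, within a relative 4.93e-10. The submitters' processing notes name hg38 as the build. Aligner, counter and strand setting are not given in the sources used here. Of 58735 genes 58724 had the coordinates of GENCODE 29, which was used for exon overlap.

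Genes past filterByExpr (14844) were tested with edgeR 4.0.16 (R 4.3.3, limma 3.58.1, DESeq2 1.42.0): TMM scaling, quasi-likelihood F-test, Benjamini-Hochberg adjustment over all genes, threshold 0.05. CPM use TMM-scaled library sizes, and pair ratios are on log2(CPM + 0.5). The design fit had no replicate term, and a second fit took the replicate number as a block. The blocked fit was to be given if same-numbered libraries correlated above 0.1 for each number, which they did. For numbers 2 and 3 this largely followed from number 1, so meeting the rule shows no pairing there. Members' calls are from the blocked fit, while the design fit called 0 of 41 members. The labels state no pairing, and in the data it rests on number 1 alone. The difference between numbers 2 and 3 was uncorrelated between the groups (-0.004), so matching within these numbers is arbitrary. The coefficient of biological variation was 32.6% without and 8.17% with the block, on 4 and 2 residual degrees of freedom. The scripts were checked on simulated data. Members, gene lists and the rule for named genes (all members; per other list up to 4 that passed with the largest change and 2 of highest CPM that did not) were chosen with earlier results of these data known. The fit of replicate 1 against the others, its interaction and the 50 CPM background were added after the data were seen. The interaction is not given as a test, because pair 1 holds 1 library per group. Intervals for a count of 0 use 3 counts. A result among the other lists is not reported here.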

Additional observations from a re-analysis of the deposited data

How the results depend on the processing

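Without a replicate term 0 members rose and 0 fell, and this also held for DESeq2, relative log expression (RLE) scaling, no filter and each of the 6 libraries left out. With the replicate block 7 rose and 11 fell in edgeR and in limma-voom, 3 and 9 in DESeq2, 5 and 11 with RLE scaling, 8 and 10 with upper-quartile scaling and 6 and 13 with no filter. Among settings chosen after seeing the data, replicate 1 as a batch term gave 8 rises and 13 falls, and replicates 2 and 3 alone without a replicate term 11 and 15. Over left-out libraries and pairs rises ran from 0 to 11 and falls from 0 to 15. Of 6 blocked settings KARS and RARS passed in 3, CEBPB, CEBPG, TRIB3, EPRS and HARS in 5, and the other 11 called members in 6. The stress response median of -0.20 without the block was -0.68 without knockdown replicate 1. It turned to 0.37 without control replicate 1, to 0.0866 without knockdown replicate 2 and to 0.0755 without knockdown replicate 3. With the block this median was -0.19 to -0.29 over these settings. The synthetase median of 0.07 was -0.063 without knockdown replicate 1, 0.18 without control replicate 1, 0.12 with upper-quartile scaling and the block and 0.031 without pair 2. No sign change passed the threshold. PPP1R15A turned to -0.0095 with DESeq2 or RLE, -0.0037 with either and the block, and -0.019 and -0.0094 with no filter, without and with it. Upper-quartile scaling with the block, which moved the median of all genes to 0.048, turned GARS to 0.021, IARS to 0.037, MARS to 0.0074, PSAT1 to 0.034 and SHMT2 to 0.011. In replicates 2 and 3 alone PSAT1 was at 0.011 and PSPH at -0.0041. Over the left-out libraries and pairs 29 members changed sign, none past the threshold, and their log2 fold changes ran as follows: AARS (-1.19 to 0.17), ASNS (-2.21 to 1.54), ATF4 (-0.57 to 0.31), CARS (-0.84 to 0.51), CEBPB (-0.87 to 0.27), CEBPG (-0.68 to 0.14), CHAC1 (-2.17 to 0.75), DDIT3 (-1.40 to 0.35), DDIT4 (-2.58 to 0.85), FARSB (-0.0796 to 0.37), GARS (-0.44 to 0.37), IARS (-0.0904 to 0.027), LARS (-0.11 to 0.27), MARS (-0.40 to 0.30). The others were MTHFD2 (-0.80 to 0.56), NARS (-0.036 to 0.18), PHGDH (-1.69 to 0.59), PPP1R15A (-0.33 to 0.35), PSAT1 (-0.53 to 0.51), PSPH (-0.0057 to 0.203), SARS (-0.80 to 0.42), SESN2 (-1.91 to 0.58), SHMT2 (-0.32 to 0.21), SLC3A2 (-0.039 to 0.19), SLC7A5 (-0.14 to 0.36), TRIB3 (-1.44 to 0.83), VLDLR (-0.94 to 0.37), WARS (-1.46 to 0.64) and YARS (-0.38 to 0.0795). At 24 to 36 counts in libraries numbered 2 and 3, depth limits ASNS, and NUPR1 and ALDH1L2 were too low to test.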

Other observations

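SLC38A2 and ATF5, from the list of further ATF4 target and amino acid genes, were chosen after their values were seen. SLC38A2, which encodes a neutral amino acid transporter induced by amino acid shortage, had 241, 262 and 259.7 CPM in knockdown libraries 1 to 3, against 571, 343 and 352 CPM in control libraries 1 to 3. The groups did not overlap (7.38% of all genes tested had every knockdown library below every control library), and the blocked log2 fold change of -0.69 did not pass (edgeR adjusted p = 0.063). Its knockdown ratio differed between pair 1 and the other pairs (adjusted p = 1.6e-19). ATF5, a transcription factor close to ATF4, had a blocked log2 fold change of 0.45 that did not pass (adjusted p = 0.18), and its ratio also differed between pair 1 and the others (adjusted p = 4.1e-06).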
